A study of Mus musculus with 12 samples.

Results

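Immediate early response genes are the genes a cell transcribes first after a stimulus, before any new protein is needed. The set described here holds 45 of them, taken by gene symbol. The rule that found them uses no measured value, but the list was drawn up with earlier results of these data known. The array carried 43, and 34 had a value on at least 2 arrays of each group, of 15131 features that met the same condition. Dusp5 and Zfp36l2 were not on the array, and Jun, Egr1, Dusp1, Ier5, Trib1, Plk2, Plk3, Nfkbia and Tnfaip3 had too few values.

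The series is titled for a nuclear growth hormone receptor, and compared mouse samples with 2 receptor forms at 2 growth hormone numbers. The 4 groups were NLS10 1GH, NLS10 0GH, WT10 1GH and WT10 0GH, with 3 samples each that carry the letters b, c and d. WT is read here as the wild-type receptor and NLS as a form with a nuclear localisation signal. The labels spell out neither, nor the unit of 0 and 1 or the meaning of 10. They list human growth hormone at 100 ng/ml for all 12 samples, 0GH included, and call the experiment a time course. The cells, the expression vector and whether a line was 1 clone were not stated in the labels. Each sample's RNA was hybridised in Cy3 beside a commercial embryonic RNA in Cy5, which is a common reference and not a sample. Whether letters are separate cultures is not stated, so p-values measure only the spread between these samples.

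All values below are log2 ratios of sample to embryonic reference, with the median of the tested features of each array subtracted. A value of 0 is therefore the median feature of that array, and a value says nothing of how abundant 1 gene is beside another. The numerator of the deposited ratios is not stated. Ratios were turned by -1 because 36 of 40 embryo-tissue genes then lay on the reference side, which makes the direction likely and not certain, and the opposite reading would turn every sign given here. Values of a group are listed in the order b, c, d. Arrays held between 15678 and 19376 spots with a value. Of the blank control spots, 7.85% to 19.5% on an array also had a value, so having a value does not by itself show signal from a gene. Of 172 possible values of the 43 genes per letter, 37 were missing in letter b, 21 in letter c and 12 in letter d. Marker genes of B lymphoid, myeloid, mast, T lymphoid, erythroid and fibroblast cells were measured beside the set. B lymphoid markers had the highest median array mean in every group, from 0.40 in NLS 0GH to 1.60 in WT 0GH. Fibroblast markers had the lowest, with array means from -4.85 to -2.03. Most of them were also among the embryo-tissue genes used to turn the ratios, so their low values are no evidence on the cells. In such bulk samples, fewer cells of a type and less RNA per cell cannot be told apart.

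Growth hormone binding activates JAK2 and, beside STAT factors, the Ras and MAP kinase cascade. That cascade phosphorylates ternary complex factors bound beside serum response factor on DNA elements called CArG boxes, and kinases downstream of it or of cyclic AMP phosphorylate CREB on elements called CRE. Fos, Egr1, Ier2 and other immediate early genes are turned on this way within minutes, and their RNAs are short-lived.

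The promoters of Maff, Srf and Zfp36 are shown because they carry these elements and because Maff had the largest growth hormone difference of the 34 genes within a receptor form. They are the 120 bases before a transcription start in RefSeq on GRCm38.p6, printed 5′ to 3′, with the element in capitals. The capitals mark a CRE in Maff and CArG boxes in Srf and Zfp36.
Maff, chr15:79347400-79347519, plus strand: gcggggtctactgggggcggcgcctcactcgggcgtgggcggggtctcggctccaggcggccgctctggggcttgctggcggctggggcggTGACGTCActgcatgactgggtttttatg
Srf, chr17:46556163-46556282, minus strand: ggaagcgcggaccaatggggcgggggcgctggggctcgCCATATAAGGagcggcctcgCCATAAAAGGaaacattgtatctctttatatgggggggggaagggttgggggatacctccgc
Zfp36, chr7:28379229-28379348, minus strand: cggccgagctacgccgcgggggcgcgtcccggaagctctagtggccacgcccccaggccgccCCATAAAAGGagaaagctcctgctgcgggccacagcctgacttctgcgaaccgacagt
The Maff element begins 29 bases before 1 of the 3 starts listed for that gene. Promoters of 36 members were in the RefSeq table, each searched on both strands from 250 bases before to 50 bases after every start. A CArG box was found in 4 of the 36, or 11.1%, namely Dusp5, Egr2, Srf and Zfp36, against 1.81% of 27025 genes. The CRE with the letters TGACGTCA was found in Btg2, Dusp1, Maff and Plk2, also 11.1% of the 36, against 2.03% of genes. The AP-1 site, TGACTCA or TGAGTCA, was found in Tnfaip3 alone, or 2.78% of the 36, against 5.95% of genes. A match of letters is a description of the sequence and does not show that a factor binds there.

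No member passed the test in any comparison. In limma fits over 15131 features with Benjamini-Hochberg adjustment, 0 members and 0% of features had an adjusted p under 0.05 for 1GH against 0GH in NLS, and the count was the same in WT (0%). It was also 0 for the difference between those 2 effects (0%), for growth hormone averaged over receptor forms (0%) and for NLS against WT averaged over growth hormone numbers (0%). The lowest adjusted p of a member was 0.998 over the growth hormone comparisons and 0.798 for NLS against WT. The heat map of all 43 genes shows values on both sides of 0 within most groups.

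**Figure D1:**
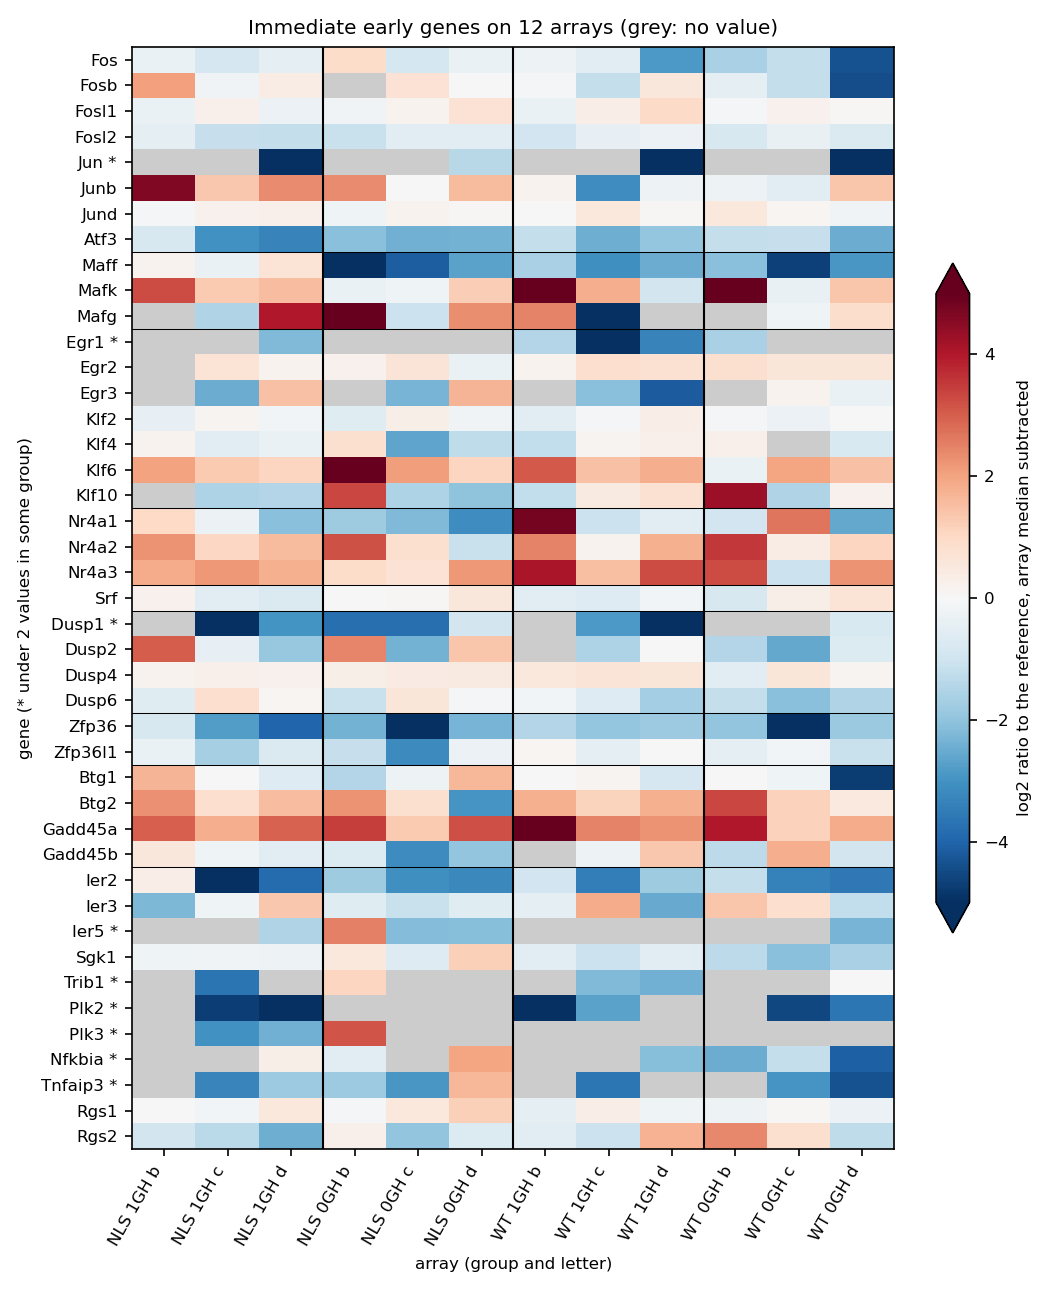
Centred log2 ratio to the embryonic reference (colour) of the 43 immediate early genes on the array (down, ordered by role) in the 12 samples (across, by group and letter). Grey cells have no value, starred genes missed the filter, and the colour scale ends at -5 and 5. Maff is near 0 in the 3 NLS 1GH samples and between -5.98 and -1.63 in the other 9, while Jund and Dusp4 stay near 0 throughout.

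At an unadjusted p under 0.05, limma found 1 of 34 members higher with 1GH in NLS, which was Maff, and 0 lower, where 2.35% of all features were higher and 1.16% lower. In WT it found 0 members on either side, where 1.23% of features were higher and 1.75% lower. The median difference of the 34 members was 0.058 in NLS, where the median of all features was -0.035. Above 0 lay 18 of the 34 members, where 48.1% of all features did. In WT the median of the members was 0.27, where that of all features was 0.022. There 21 of the 34 members lay above 0, where 51.3% of all features did. Without centring the median of the members was 0.58 in NLS and -0.012 in WT. With the outer 5% of ratios left out it was 0.19 in NLS and 0.039 in WT. The 2 effects share no samples.

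Direction over the 3 letters was counted for the 29 members with 3 differences in a receptor form. The shares beside them are of the features with 3 differences, 12097 in NLS and 12421 in WT. In NLS, 8 of 29 members were higher with 1GH in all 3 letters, where 11.5% of those features were. They were Junb, Jund, Maff, Mafk, Nr4a1, Dusp6, Btg2 and Gadd45b. Dusp4 alone was lower in all 3, where 14.3% of features were. In WT, 9 of 29 were higher in all 3 letters, where 13.8% of features were, and 0 were lower, where 9.92% of features were. Those 9 were Fos, Fosb, Maff, Nr4a3, Dusp4, Zfp36, Btg1, Gadd45a and Sgk1. Maff was on both lists. These counts are of centred values and were not repeated without centring. Some differences were small, such as 0.0036 for Jund in letter c and 0.027 for Btg2 in letter b of NLS. The array medians that were subtracted ran from -0.76 to 1.39.

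**Figure D2:**
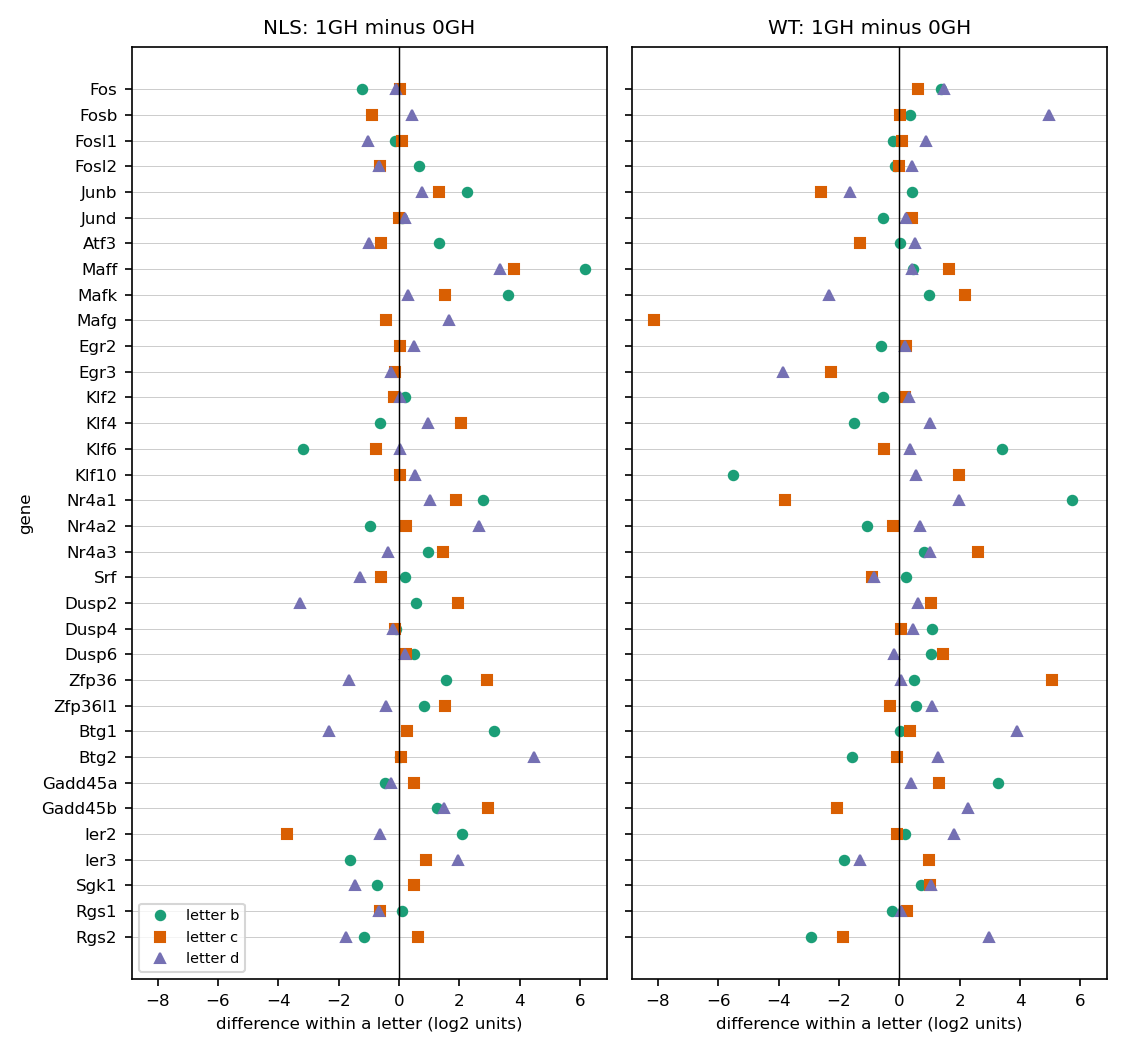
Difference 1GH minus 0GH within each letter (log2 units, across) for the 34 immediate early genes with at least 2 values per group (down), in NLS (left) and WT (right). Each point is 1 letter. The 3 Maff points lie between 3.35 and 6.17 in NLS and between 0.43 and 1.64 in WT, and many other genes have letters on both sides of 0.

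The small Maf factors are basic leucine zipper proteins without an activation domain of their own, which bind DNA as partners of other factors. Maff was at 0.19, -0.33 and 0.68 in NLS 1GH samples, against -5.98, -4.14 and -2.67 in NLS 0GH samples. For Maff, values were -1.63, -3.05 and -2.49 in WT 1GH samples, against -2.10, -4.69 and -2.92 in WT 0GH samples. All 3 NLS 1GH samples were above all of the other 9 samples, which was true of 0.502% of features and of no other member. The NLS difference was 4.44 (SE 0.90, 95% interval 2.43 to 6.45), higher in 3 of 3 letters (6.17, 3.81 and 3.35), with an unadjusted p of 0.000576 and an adjusted p of 0.9995 in limma. By that p, Maff was in place 5 of 15131 features. In WT the Maff difference was 0.85 (SE 0.90, 95% interval -1.16 to 2.86), also higher in 3 of 3 letters (0.47, 1.64 and 0.43). The difference between the NLS and WT effects was 3.60 (SE 1.28, 95% interval 0.75 to 6.44), with an unadjusted p of 0.0181 and an adjusted p of 0.998 in limma. Maff was the 1 member under an unadjusted 0.05 there, where 2.07% of features were higher and 1.06% lower, and its unadjusted p was 0.0761 without letter b and 0.0503 without letter d. Averaged over both receptor forms, the Maff difference was 2.64 (SE 0.64, 95% interval 1.22 to 4.06) with an unadjusted p of 0.00195 and an adjusted p of 0.9998 in limma. No other member had an unadjusted p under 0.05 in that comparison, where 1.85% of features were higher and 1.55% lower.

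Some cell type markers lay on the same side as Maff in NLS. B lymphoid markers were higher with 1GH for 8 of 9 genes, 2 of them at an unadjusted p under 0.05 in limma. Their array means were 0.72 to 2.06 in NLS 1GH samples, against -0.13 to 0.51 in NLS 0GH samples. T lymphoid markers were higher for 3 of 5 genes, 1 of them at an unadjusted p under 0.05 in limma, with array means of -0.96 to 0.26 in NLS 1GH samples, against -2.54 to -0.38 in NLS 0GH samples. Of the other lists, myeloid markers were higher for 5 of 8 genes, fibroblast for 6 of 9, mast cell for 3 of 5 and erythroid and megakaryocyte for 4 of 8. Of all features, 48.1% lay above 0, and 2.35% were higher at an unadjusted p under 0.05 in limma. The part of any marker list in the Maff difference was not tested.

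Mafk was at 3.28, 1.30 and 1.52 in NLS 1GH samples, against -0.32, -0.21 and 1.23 in NLS 0GH samples. For Mafk, values were 6.18, 1.82 and -0.92 in WT 1GH samples, against 5.20, -0.38 and 1.40 in WT 0GH samples. The NLS groups did not overlap, while the WT groups did, and the highest values of all were in letter b of WT. The Mafk difference was 1.80 (SE 1.77, 95% interval -2.12 to 5.72) in NLS and 0.29 (SE 1.77, 95% interval -3.64 to 4.21) in WT. Mafg, the remaining small Maf, had values on 9 arrays and the widest spread of the 34 members, with a pooled SD within groups of 4.68. Its WT 1GH values were 2.48, -8.37 and no value, so letter c set its WT difference.

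Groups that did not overlap were counted for the 34 tested members. In NLS, Maff, Mafk and Gadd45b had all 1GH samples above all 0GH samples, where 6.49% of features did, and Dusp4 had all below, where 4.38% did. In WT, Sgk1 had all 1GH samples above all 0GH samples, where 3.88% of features did, and Egr3 had all below, where 4.26% did. Egr3 had 2 values in each group, fewer than most features in that share, and the share among features with as many values was not counted. Among members that missed the filter, Dusp1 and Trib1 had both WT 1GH values below the single WT 0GH value, where 36.6% of features with as many values did. Plk3 had both NLS 1GH values below its 1 NLS 0GH value, where 21.1% of such features did.

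**Figure D3:**
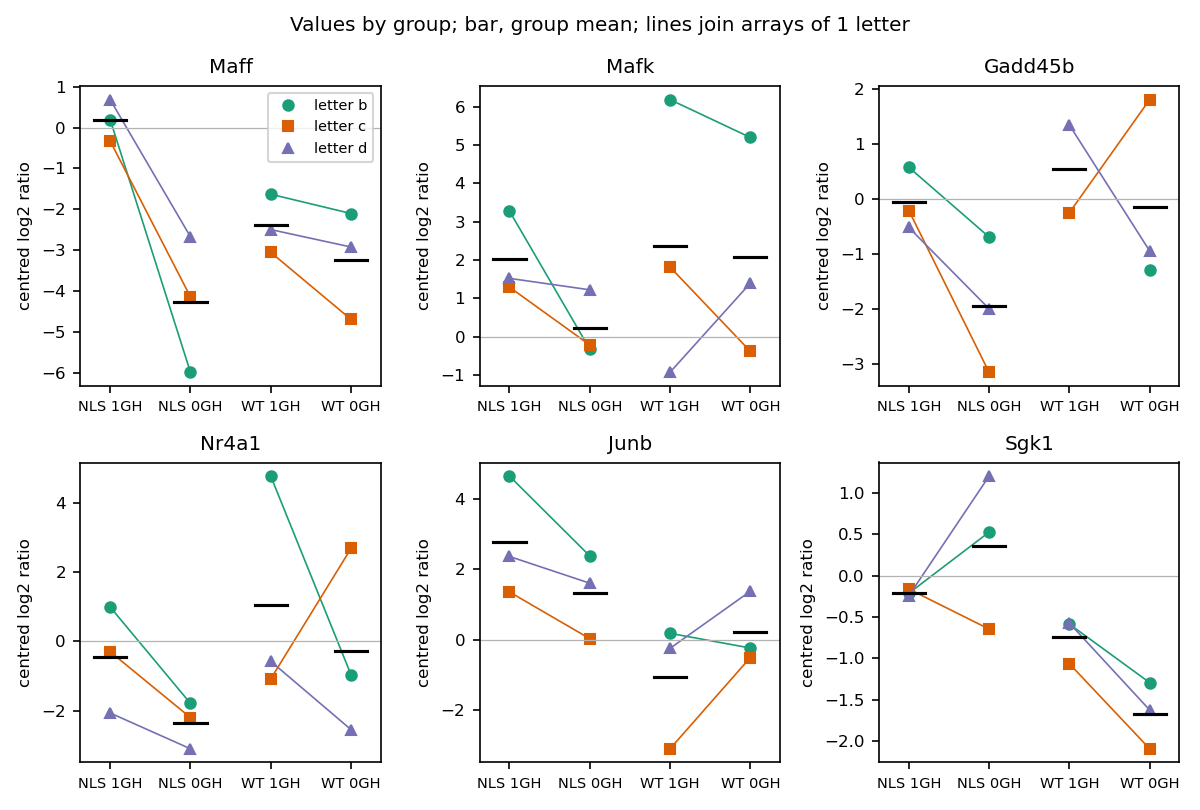
Centred log2 ratio (up) of Maff, Mafk, Gadd45b, Nr4a1, Junb and Sgk1 in NLS 1GH, NLS 0GH, WT 1GH and WT 0GH samples (across). Points are samples, lines join samples of 1 letter within a receptor form, and black bars are group means. Maff lines slope down to the right in NLS for all 3 letters, while Nr4a1 and Gadd45b lines cross in WT, and 4 of 6 NLS values of Junb lie above every WT value.

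The AP-1 subunits are Fos and Jun family proteins that pair through leucine zippers and bind AP-1 sites. Fos, the founding immediate early gene, was at -0.32, -0.84 and -0.43 in NLS 1GH samples, against 0.91, -0.86 and -0.33 in NLS 0GH samples. For Fos, values were -0.27, -0.55 and -2.86 in WT 1GH samples, against -1.64, -1.19 and -4.35 in WT 0GH samples. In WT the 1GH sample was the higher of each letter's pair, by 1.37, 0.64 and 1.496, yet letter d lay far below the other 2 letters and the groups overlapped. The Fos difference was 1.17 (SE 0.95, 95% interval -0.93 to 3.27) in WT and -0.44 (SE 0.95, 95% interval -2.54 to 1.67) in NLS, where letters differed in sign. The difference between these effects was -1.61 (SE 1.34, 95% interval -4.58 to 1.37), an adjusted p of 0.998 in limma, and it was -0.61 without the WT 0GH sample of letter d.

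Fosb, a close relative of Fos, was at 2.06, -0.18 and 0.39 in NLS 1GH samples, against no value, 0.71 and -0.026 in NLS 0GH samples. For Fosb, values were -0.07, -1.17 and 0.55 in WT 1GH samples, against -0.44, -1.19 and -4.42 in WT 0GH samples. The WT differences by letter were 0.37, 0.017 and 4.97, so letter d carried nearly all of the WT estimate of 1.78 (SE 1.06, 95% interval -0.60 to 4.17), which was 0.58 without the WT 0GH sample of that letter. In NLS the Fosb difference was 0.41 (SE 1.18, 95% interval -2.25 to 3.08).

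Junb, an AP-1 subunit that can hold back Jun, was at 4.64, 1.35 and 2.36 in NLS 1GH samples, against 2.37, 0.025 and 1.60 in NLS 0GH samples. For Junb, values were 0.18, -3.10 and -0.25 in WT 1GH samples, against -0.24, -0.51 and 1.37 in WT 0GH samples. In NLS the 1GH sample was the higher of each letter's pair, by 2.27, 1.32 and 0.76, whereas in WT it was lower in 2 of 3. The Junb difference was 1.45 (SE 1.11, 95% interval -1.02 to 3.92) in NLS and -1.26 (SE 1.11, 95% interval -3.73 to 1.21) in WT. The difference between the effects was 2.71 (SE 1.57, 95% interval -0.78 to 6.21), an adjusted p of 0.998 in limma, and it was 1.69 without the WT 1GH sample of letter c. The NLS difference was 0.53 without the NLS 1GH sample of letter b and 0.80 without the NLS 0GH sample of letter c.

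Jund, an AP-1 member that many tissues express without a stimulus, was at -0.11, 0.20 and 0.24 in NLS 1GH samples, against -0.20, 0.19 and 0.039 in NLS 0GH samples. For Jund, values were -0.0053, 0.53 and 0.05 in WT 1GH samples, against 0.54, 0.11 and -0.16 in WT 0GH samples. Its pooled SD within groups of 0.27 was the smallest of the 34 members, and its difference was 0.098 (SE 0.41, 95% interval -0.82 to 1.01) in NLS and 0.031 (SE 0.41, 95% interval -0.88 to 0.94) in WT. These were the narrowest intervals of the 34 members.

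Fosl2, a Fos relative, was at -0.46, -1.17 and -1.21 in NLS 1GH samples, against -1.12, -0.53 and -0.53 in NLS 0GH samples. For Fosl2, values were -0.94, -0.40 and -0.28 in WT 1GH samples, against -0.79, -0.38 and -0.71 in WT 0GH samples. The groups overlapped in both receptor forms, as they did for its relative Fosl1, which had differences of -0.36 (SE 0.48) in NLS and 0.26 (SE 0.48) in WT. Atf3, a stress-induced factor that pairs with Jun proteins, was at -0.78, -3.01 and -3.34 in NLS 1GH samples, against -2.10, -2.42 and -2.35 in NLS 0GH samples. For Atf3, values were -1.18, -2.43 and -1.94 in WT 1GH samples, against -1.21, -1.13 and -2.47 in WT 0GH samples. Every Atf3 value was below 0, and its differences were -0.089 (SE 0.72) in NLS and -0.25 (SE 0.72) in WT.

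Jun itself had a value only in letter d, at -6.79 in the NLS 1GH sample, against -1.38 in the NLS 0GH sample. The WT pair of that letter was at -11.06 for 1GH, against -6.71 for 0GH. With 1 value per group, no test was made for Jun.

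Egr and Klf proteins bind GC-rich promoter elements through zinc fingers. Egr1, a standard marker of MAP kinase signalling, had 1 value in NLS, -2.22 in the 1GH sample of letter d. Egr1 in WT was at -1.47, -8.26 and -3.35 in 1GH samples, against -1.63 in the single 0GH sample with a value, that of letter b. No Egr1 test was therefore possible under the filter. Egr2 was at no value, 0.67 and 0.16 in NLS 1GH samples, against 0.23, 0.64 and -0.35 in NLS 0GH samples. For Egr2, values were 0.19, 0.84 and 0.76 in WT 1GH samples, against 0.80, 0.61 and 0.59 in WT 0GH samples. Egr2 lay within 1 log2 unit of the array median on every array where it had a value. Its differences were 0.24 (SE 0.51, 95% interval -0.92 to 1.40) in NLS and -0.07 (SE 0.46, 95% interval -1.10 to 0.97) in WT.

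Klf2, a factor tied to quiescence in lymphocytes and endothelium, was at -0.42, 0.14 and -0.13 in NLS 1GH samples, against -0.62, 0.31 and -0.16 in NLS 0GH samples. For Klf2, values were -0.56, -0.096 and 0.32 in WT 1GH samples, against -0.041, -0.28 and -0.0023 in WT 0GH samples. It was among the 8 members with a pooled SD within groups under 0.5, a band that held 12.6% of all features. The Klf2 differences were 0.018 (SE 0.45, 95% interval -0.97 to 1.01) in NLS and -0.0058 (SE 0.45, 95% interval -0.995 to 0.98) in WT.

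Klf6, a growth-factor-induced Klf, was at 2.03, 1.33 and 1.09 in NLS 1GH samples, against 5.21, 2.08 and 1.06 in NLS 0GH samples. For Klf6, values were 3.06, 1.47 and 1.83 in WT 1GH samples, against -0.34, 1.96 and 1.48 in WT 0GH samples. Letter b set the Klf6 contrast, with differences by letter of -3.18, -0.76 and 0.032 in NLS and 3.40, -0.49 and 0.34 in WT. The difference between the effects was -2.39 (SE 1.45, 95% interval -5.62 to 0.84), an adjusted p of 0.998 in limma, and it was -0.23 without letter b. Egr3, a relative of Egr1, Klf4, a differentiation factor, and Klf10, a TGF-beta-induced repressor, had differences of -0.19 (SE 1.80), 0.80 (SE 0.86) and -1.43 (SE 1.89) in NLS. In WT they had -3.05 (SE 1.80), -0.035 (SE 0.96) and -1.001 (SE 1.69).

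The Nr4a genes encode orphan nuclear receptors that act without a known hormone and are controlled by how much of them is made. Nr4a1, also known as Nur77, was at 0.99, -0.30 and -2.07 in NLS 1GH samples, against -1.79, -2.20 and -3.11 in NLS 0GH samples. For Nr4a1, values were 4.77, -1.09 and -0.58 in WT 1GH samples, against -0.96, 2.68 and -2.55 in WT 0GH samples. In NLS all 3 letters were higher with 1GH, by 2.78, 1.90 and 1.03, although the groups overlapped because letters differed in level. In WT the letters gave 5.74, -3.77 and 1.97. The Nr4a1 difference was 1.91 (SE 1.68, 95% interval -1.82 to 5.63) in NLS, or 1.19 without the NLS 1GH sample of letter b, and 1.31 (SE 1.68, 95% interval -2.41 to 5.04) in WT.

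Nr4a3 was at 1.87, 2.17 and 1.78 in NLS 1GH samples, against 0.92, 0.73 and 2.15 in NLS 0GH samples. For Nr4a3, values were 4.09, 1.52 and 3.27 in WT 1GH samples, against 3.27, -1.09 and 2.26 in WT 0GH samples. In WT the 1GH sample was the higher of each pair, by 0.82, 2.61 and 1.01, and in NLS letter d went the other way. Averaged over both receptor forms its difference was 1.08 (SE 0.75, 95% interval -0.58 to 2.74), an adjusted p of 0.9998 in limma, and 0.43 without the WT 0GH sample of letter c. Nr4a2 had letters of both signs, with differences of 0.65 (SE 1.15) in NLS and -0.20 (SE 1.15) in WT.

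Serum response factor, the protein that binds CArG boxes and carries 2 of them in its own promoter as printed above, was at 0.20, -0.54 and -0.73 in NLS 1GH samples, against 0.018, 0.065 and 0.57 in NLS 0GH samples. For Srf, values were -0.57, -0.63 and -0.13 in WT 1GH samples, against -0.79, 0.29 and 0.69 in WT 0GH samples. In both receptor forms it was lower with 1GH in letters c and d and higher in letter b. The Srf difference was -0.57 (SE 0.51, 95% interval -1.71 to 0.56) in NLS and -0.51 (SE 0.51, 95% interval -1.64 to 0.63) in WT.

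Dual-specificity phosphatases remove the activating phosphates from MAP kinases and are induced by the kinases they switch off. Dusp6, which acts on ERK in the cytoplasm, was at -0.61, 0.85 and 0.11 in NLS 1GH samples, against -1.11, 0.61 and -0.10 in NLS 0GH samples. For Dusp6, values were -0.13, -0.65 and -1.69 in WT 1GH samples, against -1.17, -2.10 and -1.51 in WT 0GH samples. NLS differences were small and of 1 sign, 0.503, 0.24 and 0.21, and the groups overlapped. The Dusp6 difference was 0.32 (SE 0.64, 95% interval -1.10 to 1.74) in NLS and 0.77 (SE 0.64, 95% interval -0.65 to 2.19) in WT.

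Dusp4, a nuclear phosphatase of the same family, was at 0.19, 0.26 and 0.22 in NLS 1GH samples, against 0.28, 0.40 and 0.43 in NLS 0GH samples. For Dusp4, values were 0.53, 0.65 and 0.60 in WT 1GH samples, against -0.56, 0.60 and 0.15 in WT 0GH samples. All 3 letters were slightly lower with 1GH in NLS, by -0.091, -0.14 and -0.21, and higher in WT, by 1.09, 0.046 and 0.46. The Dusp4 difference was -0.15 (SE 0.42, 95% interval -1.09 to 0.79) in NLS and 0.53 (SE 0.42, 95% interval -0.41 to 1.47) in WT. The difference between them, -0.68 (SE 0.60, 95% interval -2.005 to 0.65), had an adjusted p of 0.998 in limma. The sign in NLS depended on centring, since without it the Dusp4 difference there was 0.22.

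Dusp2, another nuclear family member that was first found in activated lymphocytes, was at 3.01, -0.40 and -1.89 in NLS 1GH samples, against 2.44, -2.35 and 1.39 in NLS 0GH samples. For Dusp2, values were no value, -1.53 and -0.034 in WT 1GH samples, against -1.46, -2.57 and -0.67 in WT 0GH samples. Its letters had both signs in NLS, and the Dusp2 difference was -0.25 (SE 1.48, 95% interval -3.59 to 3.09) there and 0.78 (SE 1.65, 95% interval -2.95 to 4.51) in WT. Dusp1, the family's most typical immediate early gene, was at no value, -6.64 and -3.001 in NLS 1GH samples, against -3.77, -3.76 and -0.90 in NLS 0GH samples. For Dusp1, values were no value, -2.87 and -5.37 in WT 1GH samples, against no value, no value and -0.77 in WT 0GH samples. The 3 pairs of 1 letter that could be formed were lower with 1GH, but Dusp1 missed the filter and was not tested.

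Zfp36, or tristetraprolin, binds AU-rich elements in short-lived mRNAs and speeds their decay, those of immediate early genes and cytokines among them. It was at -0.80, -2.78 and -3.97 in NLS 1GH samples, against -2.37, -5.68 and -2.31 in NLS 0GH samples. For Zfp36, values were -1.48, -1.92 and -1.80 in WT 1GH samples, against -1.98, -6.97 and -1.85 in WT 0GH samples. In WT letter c differed by 5.05 and the other letters by 0.50 and 0.042, so 1 sample, WT 0GH of letter c, set the WT estimate of 1.86 (SE 1.44, 95% interval -1.33 to 5.06). Without that sample the WT difference was 0.16. In NLS it was 0.94 (SE 1.44, 95% interval -2.26 to 4.13). Zfp36l1, a relative with the same activity, had 2 spots that disagreed, with SDs over arrays of 1.93 and 0.326. Its mean difference was 0.65 (SE 0.72) in NLS and 0.44 (SE 0.72) in WT.

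Btg and Gadd45 genes restrain growth or respond to DNA damage and stress. Btg1, an antiproliferative gene, was at 1.70, 0.032 and -0.65 in NLS 1GH samples, against -1.45, -0.25 and 1.67 in NLS 0GH samples. For Btg1, values were -0.013, 0.13 and -0.85 in WT 1GH samples, against -0.037, -0.22 and -4.74 in WT 0GH samples. In WT letter d alone stood apart, with 0.024, 0.35 and 3.89 by letter. Averaged over receptor forms the Btg1 difference was 0.89 (SE 0.90, 95% interval -1.10 to 2.89), and 0.13 without the WT 0GH sample of letter d.

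Btg2, a p53 target of the same family, was at 2.27, 0.86 and 1.55 in NLS 1GH samples, against 2.24, 0.79 and -2.94 in NLS 0GH samples. For Btg2, values were 1.78, 1.10 and 1.78 in WT 1GH samples, against 3.35, 1.17 and 0.496 in WT 0GH samples. The NLS 0GH sample of letter d lay far below all others and set the differences by letter of 0.027, 0.069 and 4.48. The Btg2 difference was 1.53 (SE 1.20, 95% interval -1.14 to 4.19) in NLS and -0.12 (SE 1.20, 95% interval -2.78 to 2.55) in WT, and the difference between the effects of 1.64 (SE 1.70, 95% interval -2.12 to 5.41) was 0.18 without that sample.

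Gadd45a, a stress sensor induced by DNA damage, was at 2.97, 1.81 and 2.96 in NLS 1GH samples, against 3.44, 1.30 and 3.23 in NLS 0GH samples. For Gadd45a, values were 7.25, 2.49 and 2.23 in WT 1GH samples, against 3.99, 1.16 and 1.85 in WT 0GH samples. All 12 values were above 1, and the WT 1GH sample of letter b was the highest. The WT difference was 1.66 (SE 1.30, 95% interval -1.24 to 4.55) and 0.035 without that sample. In NLS it was -0.076 (SE 1.30, 95% interval -2.97 to 2.82), and the difference between the effects was -1.73 (SE 1.84, 95% interval -5.83 to 2.36), or -0.091 without that sample.

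Gadd45b, an activator of the p38 and JNK kinases through MTK1, was at 0.58, -0.20 and -0.51 in NLS 1GH samples, against -0.69, -3.14 and -1.99 in NLS 0GH samples. For Gadd45b, values were no value, -0.24 and 1.35 in WT 1GH samples, against -1.29, 1.81 and -0.94 in WT 0GH samples. The NLS groups did not overlap, with 1GH higher by 1.27, 2.94 and 1.48 in the letters, while the WT letters had opposite signs. The Gadd45b difference was 1.89 (SE 0.96, 95% interval -0.27 to 4.06) in NLS, with an unadjusted p of 0.0788 and an adjusted p of 0.9995 in limma, and 0.69 (SE 1.07, 95% interval -1.72 to 3.11) in WT.

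Among the remaining signalling genes, Ier2, a small nuclear protein gene, was at 0.34, -6.80 and -3.85 in NLS 1GH samples, against -1.76, -3.08 and -3.21 in NLS 0GH samples. For Ier2, values were -0.97, -3.46 and -1.76 in WT 1GH samples, against -1.17, -3.40 and -3.57 in WT 0GH samples. The spread within each group was wide, with letter b highest in every group, and the Ier2 difference was -0.75 (SE 1.53, 95% interval -4.15 to 2.65) in NLS and 0.65 (SE 1.53, 95% interval -2.75 to 4.05) in WT. Rgs1, a brake on G protein signalling in lymphocytes, was at 0.029, -0.12 and 0.52 in NLS 1GH samples, against -0.085, 0.51 and 1.19 in NLS 0GH samples. For Rgs1, values were -0.498, 0.33 and -0.21 in WT 1GH samples, against -0.24, 0.076 and -0.28 in WT 0GH samples. It stayed within 1.2 log2 units of the array median, and its difference averaged over receptor forms was -0.19 (SE 0.34, 95% interval -0.94 to 0.56). Ier3, a survival gene, had differences of 0.41 (SE 1.20) in NLS and -0.71 (SE 1.20) in WT.

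Nfkbia, which encodes the inhibitor that holds NF-kappaB in the cytoplasm, had 3 values in NLS and 4 in WT. It was at no value, no value and 0.30 in NLS 1GH samples, against -0.55, no value and 1.99 in NLS 0GH samples. For Nfkbia, values were no value, no value and -2.13 in WT 1GH samples, against -2.48, -1.18 and -4.08 in WT 0GH samples. All 3 NLS values were above all 4 WT values, with means of 0.58 ± 1.29 in NLS and -2.47 ± 1.21 in WT (SD over n = 3 and n = 4 samples). Of 259 features with as many values, 1.54% had NLS above WT in this way. Nfkbia missed the filter and was not tested.

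Tnfaip3, a deubiquitinase that damps NF-kappaB signalling and whose promoter held the AP-1 site, was at no value, -3.30 and -1.81 in NLS 1GH samples, against -1.80, -2.92 and 1.64 in NLS 0GH samples. For Tnfaip3, values were no value, -3.61 and no value in WT 1GH samples, against no value, -2.96 and -4.35 in WT 0GH samples. It missed the filter because 1 WT 1GH sample had a value. The other genes that missed it were Ier5, the pseudokinase gene Trib1 and the polo-like kinase genes Plk2 and Plk3, with 5, 5, 6 and 3 values. The 4 NLS values of Ier5 were above its 1 WT value, where 20% of features with as many values were.

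Receptor form was compared over all 12 samples, a contrast that shares its samples with those above. Members had a median NLS minus WT difference of -0.19, where the median of all features was -0.031. Of the 34 members, 13 lay above 0, where 48.0% of all features did. At an unadjusted p under 0.05 in limma, Fos, Junb, Dusp6 and Sgk1 were higher in NLS, 4 of 34 members, where 2.81% of features were. No member was lower at that threshold, where 3.06% of features were. Pairing samples of 1 letter and growth hormone number, Junb and Sgk1 were higher in NLS in all 6 pairs, 2 of 26 members with 6 pairs, where 3.35% of features were. No member was lower in all 6, where 2.36% of features were. None of the 34 tested members had all NLS samples above all WT samples, where 0.463% of features did, or all below, where 0.291% did.

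Sgk1, a kinase induced by serum and glucocorticoids that promotes survival and sodium transport, was at -0.21, -0.16 and -0.24 in NLS 1GH samples, against 0.53, -0.64 and 1.21 in NLS 0GH samples. For Sgk1, values were -0.58, -1.06 and -0.57 in WT 1GH samples, against -1.29, -2.09 and -1.62 in WT 0GH samples. Of the 6 NLS samples, 5 were above every WT sample, and the exception was NLS 0GH of letter c. Sgk1 averaged 0.079 ± 0.67 in NLS and -1.21 ± 0.60 in WT (SD, n = 6 each). The NLS minus WT difference was 1.28 (SE 0.37, 95% interval 0.46 to 2.11), with an unadjusted p of 0.00606 and an adjusted p of 0.798 in limma. With 1GH against 0GH, Sgk1 was higher in all 3 letters of WT, by 0.71, 1.03 and 1.05, and its difference was 0.93 (SE 0.53, 95% interval -0.24 to 2.10) in WT and -0.57 (SE 0.53, 95% interval -1.74 to 0.60) in NLS. The NLS value was -1.07 without the NLS 0GH sample of letter c and -0.11 without letter d.

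Junb, whose values are given above, averaged 2.06 ± 1.53 in NLS and -0.43 ± 1.47 in WT (SD, n = 6 each). Of the 6 NLS samples, 4 were above every WT sample. The Junb difference was 2.48 (SE 0.79, 95% interval 0.73 to 4.23), with an unadjusted p of 0.00997 and an adjusted p of 0.826 in limma. Dusp6 averaged -0.042 ± 0.73 in NLS and -1.21 ± 0.72 in WT, with a difference of 1.17 (SE 0.45, 95% interval 0.16 to 2.17) and an adjusted p of 0.836 in limma. Fos averaged -0.31 ± 0.65 in NLS and -1.81 ± 1.55 in WT, with a difference of 1.496 (SE 0.67, 95% interval 0.0092 to 2.98) and an adjusted p of 0.847 in limma. None of the 4 stayed under an unadjusted 0.05 in every fit that left out a letter, all made without a block. Fos was 0.62 without letter d, with an unadjusted p of 0.291 in limma. Dusp6 was 0.70 (unadjusted p of 0.249 in limma) without letter c and 1.83 (0.0054) without letter b. Junb had an unadjusted p of 0.0631 in limma without letter b, and Sgk1 one of 0.0578 without letter d. With the letter as a block and no sample left out, unadjusted p values in limma were 0.00142 for Junb and 0.00394 for Sgk1. They were 0.0263 for Fos and 0.0345 for Dusp6, and the lowest adjusted p of a member was 0.466.

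Rgs2, a relative of Rgs1 that restrains Gq signalling, was at -0.93, -1.33 and -2.42 in NLS 1GH samples, against 0.25, -1.97 and -0.68 in NLS 0GH samples. For Rgs2, values were -0.55, -1.07 and 1.72 in WT 1GH samples, against 2.39, 0.81 and -1.26 in WT 0GH samples. The groups overlapped, with the WT spread the wider, and the Rgs2 difference between NLS and WT was -1.52 (SE 0.74, 95% interval -3.16 to 0.13). Those of Nr4a1 and Btg2 were -1.79 (SE 1.19, 95% interval -4.43 to 0.84) and -0.82 (SE 0.85, 95% interval -2.70 to 1.06), with adjusted p of 0.909 and 0.937 in limma. Without the WT 1GH sample of letter b the Nr4a1 value was -0.87, and without the NLS 0GH sample of letter d that of Btg2 was -0.075. Erythroid and megakaryocyte markers lay lower in NLS for 6 of 8 genes, with array means of -1.51 to 0.20 in NLS samples and -0.79 to 1.54 in WT samples. Of the other lists, T lymphoid markers lay higher in NLS for 1 of 5 genes, B lymphoid for 3 of 9 and myeloid for 3 of 8. Mast cell markers did for 3 of 5 and fibroblast markers for 5 of 9, where 48.0% of all features lay above 0. The part of any marker list in the receptor differences was not tested.

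**Figure D4:**
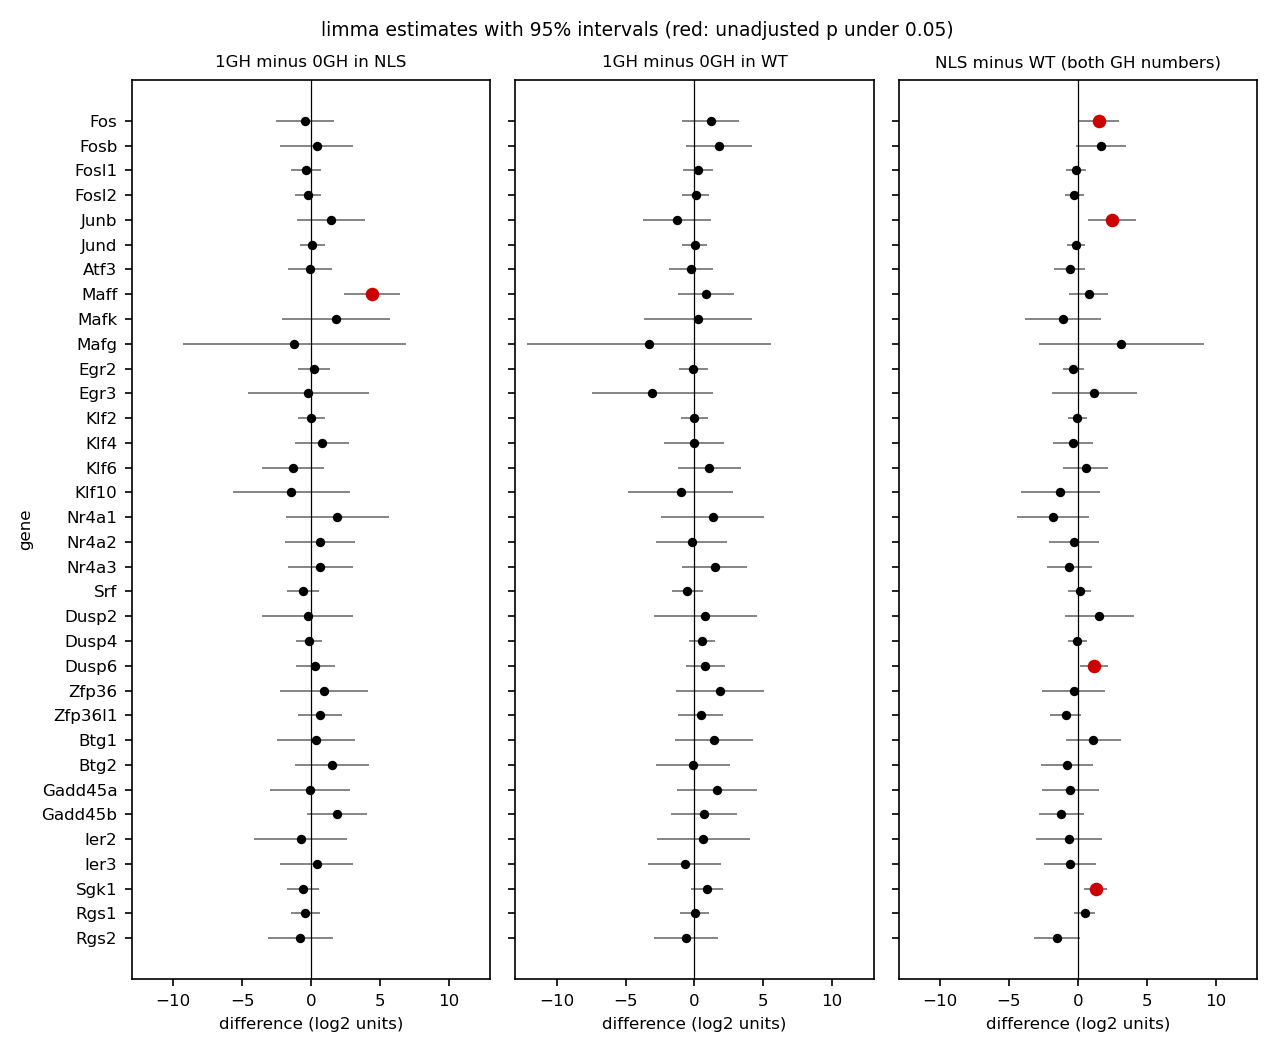
limma estimates with 95% intervals (log2 units, across) for the 34 immediate early genes (down) of 1GH minus 0GH in NLS, 1GH minus 0GH in WT, and NLS minus WT over both growth hormone numbers. Red points have an unadjusted p under 0.05. The interval excludes 0 for Maff in the left panel, for no gene in the middle panel, and for Fos, Junb, Dusp6 and Sgk1 in the right panel.

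The width of the intervals sets what these arrays can show. For 1GH minus 0GH in NLS the 95% interval reached 0.91 to either side for Jund and 8.09 for Mafg, with a median of 2.30 over the 34 members. An upper bound under 1 was reached by 7 members in NLS and by 4 in WT. Spread within groups differed widely between members, from a pooled SD of 0.27 for Jund to 4.68 for Mafg, with a median of 1.32, where that of all features was 1.25. Dusp4, Fosl2, Klf2, Egr2, Rgs1, Fosl1 and Srf were the other members under 0.5. At the far end, 13 members had an SD over 1.5, where 39.2% of all features did.

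Genes upstream of the set were counted from a list of MAP kinase, SRF and CREB pathway components. Of 47 listed, 32 were tested and 0 passed an adjusted p under 0.05 in limma in any comparison. Their median difference for 1GH against 0GH was -0.12 in NLS and 0.0053 in WT. At an unadjusted p under 0.05, Gab2, a docking adaptor of cytokine receptors, and Prkca, a protein kinase C, were lower in NLS by differences of -2.36 (SE 1.04) and -1.68 (SE 0.66). Elk3, a ternary complex factor, was higher in WT by 1.70 (SE 0.75). These were 2 of 32 genes lower in NLS, where 1.16% of all features were, and 1 of 32 higher in WT, where 1.23% were.

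A second list held 54 early response genes outside the set, of which 43 were tested and 0 passed in limma. Their median difference was 0.23 in NLS and also 0.23 in WT. At an unadjusted p under 0.05, Spry2, a feedback inhibitor of receptor tyrosine kinase signalling, was higher with 1GH in NLS by 6.31 (SE 2.32). Sik1, a CREB-induced kinase, was lower in WT by a difference of -3.29 (SE 1.06). Each was 1 of 43 genes, where 2.35% of all features were higher in NLS and 1.75% lower in WT, so neither count stood out from all features.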

How the data were processed

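Total RNA of 12 samples was measured on 2-colour spotted arrays. The authors deposited 1 value per spot and array, read here as log2 ratios from their range, since no source used here gives the log base or the numerator. Per the series text, the authors fitted a Lowess curve with 50% of the data and raised a control channel below 200 to that value. Of 23040 spots, 22138 were not controls (blank, Gapdh or YIR), and 16720 of them had 1 gene symbol. Symbols were checked by Entrez identifier (16014 spots matched, 0 updated). Values were multiplied by -1, spots of a gene were averaged, and features with at least 2 values in each group were kept (15131, of which 11859 named genes). Each array was centred on their median. Medians as deposited ran from -1.24 to 0.893, and Gapdh control spots had an SD of 0.690 to 2.11 within an array.

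The model was 4 group means over the 12 arrays with no block, fitted in R 4.3.3 by lmFit and eBayes of limma 3.58.1, two-sided, with Benjamini-Hochberg adjustment over 15131 features and a threshold of 0.05. Intervals are those of the moderated fit. Scripts ran in Python 3.11.15, and the fit was tested on simulated data. There, 4 of 100 features raised by 2 log2 units in NLS 1GH had an adjusted p under 0.05 in limma. Of 100 raised by 4, 35 did. The members and lists were chosen with earlier results of these data known. Values on every array are given for a fixed list of members, for members at an unadjusted p under 0.05, and for the 3 largest differences in each direction with 1 sign over 3 letters. Mafk and Mafg values outside that rule were added after their values were seen. Alternatives changed the centring, the normalization, the filter, the averaging of spots, the outer 5% of ratios, the prior, a block for letters and the samples left out. The number of arrays limits the precision. Promoter sequences are from RefSeq on GRCm38.p6.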

Additional observations from a re-analysis of the deposited data

Results flagged for a closer look

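Dusp4, a nuclear MAP kinase phosphatase, was lower with 1GH in all 3 letters of NLS and higher in all 3 of WT. These directions are those of centred values, and without centring the Dusp4 difference in NLS was 0.22. The difference between the 2 effects was -0.68 (SE 0.60), with an unadjusted p of 0.281 and an adjusted p of 0.998 in limma. Of the 26 members with 6 such differences, Dusp4 was the 1 with opposite signs in this way, or 3.85%, against 369 of 10824 features, or 3.41%.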

How the results depend on the processing

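The count of members called was 0 in every comparison under each of the 24 alternatives, which covered centring, normalization, filters, spot averaging, the prior, blocks for letters and left-out samples. The count of all features called was also 0, except that 1 feature, not a member, passed for NLS against WT when spots were not averaged. The median of the members depended on centring. Without centring it was -0.012 for 1GH against 0GH in WT, 0.58 in NLS and 0.55 for the difference between them. With the outer 5% of ratios left out it was 0.039 in WT, 0.19 in NLS and -0.070 for NLS against WT. Leaving out 1 sample or 1 letter gave medians of 0.091 to 0.49 in WT, -0.15 to 0.38 in NLS, -0.35 to 0.12 for the difference between them, 0.095 to 0.45 averaged over receptor forms and -0.27 to -0.044 for NLS against WT. Maff in NLS kept an unadjusted p between 0.000207 and 0.0054 in limma, with differences of 3.59 to 5.25 when a sample or letter was left out. Samples of 1 letter were more alike than samples of different letters, with correlations of their deviations of 0.0437 to 0.261 (median 0.148, 18 pairs) against -0.183 to 0.0618 (median -0.067, 36 pairs), and all 12 arrays correlated best with one of their own letter. Within a letter, the labels give 1 dye incorporation for the Cy5 reference. It was 19.3 base pairs per dye in b, 19.8 in c and 17.9 in d. The letter was still left out of the fits of the report. No label says whether a letter is 1 culture, and not every pair passed 0.1. With the letter as a replicate block, 770 features were under an unadjusted p of 0.05 in NLS and 641 in WT, against 531 and 451 without it, and 0 passed after adjustment in limma. Members under an unadjusted p of 0.05 with the block in limma were Maff in NLS, higher, and Mafg in WT, lower. For the difference between the effects they were Maff, Mafg and Junb, higher, and Sgk1, lower. Averaged over receptor forms it was Maff, and for NLS against WT they were Fos, Fosb, Junb, Mafg, Dusp6 and Sgk1, all higher. These were 1, 1, 4, 1 and 6 of 34 members, against 770, 641, 653, 735 and 1220 of 15131 features. Mafg had values on 9 arrays, and only letter c held both of its WT values. Its WT difference was -5.87 (SE 1.59) with the block and -3.28 (SE 3.77) without it, so its blocked results rest on few samples. Under that block the Maff difference in NLS had an adjusted p of 0.688 and Junb in NLS against WT one of 0.466. Counts at an unadjusted p without centring were 280 in WT and 450 for NLS against WT, against 451 and 888 with it. Of 3805 member differences recomputed, 65 moved by over 1 SE. With 3 arrays a group, the median 95% interval of a member reached 2.30 log2 units to either side in NLS, 2.34 in WT and 1.63 in the averaged comparisons, and a missed threshold does not show that values did not differ.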
